A study of Mus musculus with 10 samples.

Results

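Promoters of 90 autosomal genes that encode developmental transcription factors were examined in a cell fraction labelled prospermatogonia. Prospermatogonia are the fetal male germ cells that stop dividing in the testis before birth and acquire new DNA methylation there. A gene was a member if its symbol belonged to the Fox, Pax, Tbx, Lhx, sine oculis (Six4, Six5 and related symbols) or Nkx family, and its promoter was taken as 1000 b either side of every transcription start that GENCODE M21 gives on mm10. The rule used symbols and positions only. It gave 41 Fox, 9 Pax, 12 Tbx, 8 Lhx, 6 sine oculis and 14 Nkx genes of 20807 autosomal protein-coding genes. Measured CpGs lay near 85 of the 90 members, each with at least 4. Foxi2, Foxn1, Foxq1, Foxr1 and Pax4 had none. The 85 members held 4313 CpG cytosines, out of 1348062 measured on chromosomes 1 to 19, X and Y. These lay at 3265 CpG dinucleotides, because the strands were listed apart and 1048 dinucleotides were read on both. No CpG belonged to 2 members, while 108 CpGs near Foxa3, Foxj3, Foxm1 and Six6 also lay in the window of a neighbouring gene.

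The DNA came from F1 fetuses of C3H/HeN mice, taken late in gestation. Control dams drank tap water, and arsenic dams drank tap water with sodium arsenite from mid-gestation until the fetuses were taken. Testes of many fetuses from different dams were pooled, and cells were isolated magnetically with an antibody against CD90.2/Thy1.2, so that each of the 5 control and 5 arsenic samples was a pool. According to the paper, a further arsenic pool was left out for its lower sequencing depth. Reduced representation bisulfite sequencing (RRBS), which reads mainly CpG-rich fragments cut at CCGG, gave for each CpG the number of reads that kept a cytosine (methylated) and the coverage. A gene's level was the mean over its CpGs of methylated reads over coverage, in percent.

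Total calls per pool ran from 44207245 to 66570870 and the median coverage from 25 to 40 reads. Arsenic pool 1 had the lowest mean level over all CpGs, 42.1%, and arsenic pool 5 the highest, 47.3%. Promoters of germline genes, which are unmethylated in germ cells, had a mean of 57.4% ± 2.49 in control and 62.0% ± 10.2 in arsenic pools over 11 genes, 9 of them above 50%, from 45.6% in arsenic pool 1 to 73.6% in arsenic pool 5. Maternally imprinted promoters, whose methylation is erased in fetal male germ cells, had 35.9% ± 2.65 and 37.7% ± 7.54 over 10 genes, again lowest in arsenic pool 1 (26.3%) and highest in arsenic pool 5 (46.3%). These levels go against the label of a pure germ cell fraction. By real-time PCR the paper measured more Thy1.2 and Oct4 RNA in this fraction than in its type A spermatogonia fraction. Its principal component analysis of methylation separated prospermatogonia, type A spermatogonia and sperm. The levels below are those of the fraction as isolated. In a pool, partial methylation in every cell and a mixture of methylated and unmethylated cells cannot be told apart.

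Methyl groups on CpGs close to a transcription start go together with a silent promoter in most cell types. Genes of these 6 families set up organs and cell types in the embryo, through a forkhead (Fox), paired (Pax), T-box (Tbx), LIM-homeobox (Lhx) or other homeobox (sine oculis, Nkx) DNA-binding domain. Their starts usually lie in long CpG islands, which in most cells that do not use the gene are kept off by Polycomb proteins rather than by DNA methylation. Prospermatogonia gain methylation over most of the genome, and CpG islands are the main exception.

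The 5 stretches below are printed to show what low and high members look like. They are GRCm38/mm10 sequence read 5′ to 3′ on the strand of the gene, and measured CpGs are in capitals except in Foxs1. Foxl2, which keeps granulosa cells of the ovary in their identity, is shown from 152 to 3 b upstream of its start (chr9:98955136-98955285, plus strand). Foxo3, which holds resting oocytes dormant, is shown at its first start (chr10:42276966-42277115, minus strand, 211 to 360 b upstream) and at an inner start in an intron (chr10:42259189-42259338, minus strand, 823 to 972 b upstream of it). Foxi1, a factor of ion-transporting cells, is shown in a coding exon (chr11:34207850-34207999, minus strand). Foxs1, a forkhead factor of neural crest derivatives and pericytes, is shown in a coding exon (chr2:152932762-152932844, minus strand) with the 6 CpGs that passed the test for single CpGs in capitals.
Foxl2: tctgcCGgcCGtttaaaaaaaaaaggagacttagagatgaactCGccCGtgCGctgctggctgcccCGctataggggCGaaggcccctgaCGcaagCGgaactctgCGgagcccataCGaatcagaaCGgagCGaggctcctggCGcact
Foxo3 first start: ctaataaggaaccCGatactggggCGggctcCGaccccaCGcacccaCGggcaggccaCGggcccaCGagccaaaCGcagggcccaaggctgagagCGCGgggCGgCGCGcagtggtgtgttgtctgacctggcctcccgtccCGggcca
Foxo3 inner start: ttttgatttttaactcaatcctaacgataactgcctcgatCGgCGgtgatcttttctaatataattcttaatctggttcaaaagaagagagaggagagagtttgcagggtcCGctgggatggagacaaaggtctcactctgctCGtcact
Foxi1: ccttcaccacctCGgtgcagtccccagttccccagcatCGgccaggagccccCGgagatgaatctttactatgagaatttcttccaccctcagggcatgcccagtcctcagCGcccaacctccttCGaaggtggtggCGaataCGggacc
Foxs1: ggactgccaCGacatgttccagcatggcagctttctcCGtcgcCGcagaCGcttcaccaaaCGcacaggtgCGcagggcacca

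The 14 CpGs of the Foxl2 stretch, read as 22 cytosines, had a mean level of 0.984% over the 10 pools. The 14 measured CpGs of the first Foxo3 stretch stood at 0.271%, and the 4 CpGs of the inner stretch at 87.7%. The Foxi1 stretch, with 7 CpGs in 150 b, lay at 45.9%, and single pools ranged from 23.5% to 71.1%.

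Most members were nearly free of methylation. The median gene level over all 10 pools was 1.75%, beside 3.77% over the 14435 autosomal protein-coding genes with CpGs. In all, 60 of 85 members (70.6%) lay under 5%, compared with 53.4% of all genes, and 45 of them under 2%. Only 3 members (3.53%) exceeded 50%, compared with 13.9% of all genes. The mean over members was 7.63%, and over all genes 17.0%. In 7 other developmental families (Sox, Gata, Dlx, Irx, Zic, Hox and Pou, 89 measured genes) the median was 2.33% and the mean 6.83%. There 73.0% of genes lay under 5%, from 50% in Pou to 100% in Zic, and 2.25% exceeded 50%. Of 28 Polycomb group genes 71.4% lay under 5%, and of 266 Zfp genes 65.0%, with 8.27% of the Zfp genes over 50%. Low levels were therefore not particular to the members. Mitochondrial CpGs, which are generally taken as unmethylated, read between 1.12% and 1.39% in the 10 pools, so the lowest members stood at the level that unconverted or misread bases can give. The paper's reported bisulfite conversion rate allows a larger unconverted share than these values. No test was made of the gap between members and other genes.

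By the mean of gene levels in the window of 1000 b, the order of the families was sine oculis, Lhx, Pax, Nkx, Fox and Tbx from lowest to highest. By the median gene it was sine oculis (1.24%), Fox, Nkx, Lhx (2.35%), Pax (2.68%) and Tbx, and the order was not tested. The sine oculis mean was 1.47%, with a range from Six5 (0.688%) to Six6 (3.06%). The Lhx mean was 2.55%, from Lhx8, a factor of oocytes and the forebrain, at 1.18% to Lhx3, a factor of the pituitary, at 5.14%. The Pax mean was 5.08%, with a range from Pax3 (0.904%) to Pax8 (20.9%), which builds the thyroid, kidney and genital ducts. Nkx genes averaged 6.29% because of Nkx6-3, a stomach factor, at 49.6%, while the median Nkx gene stood at 1.73% and the lowest, Nkx6-2, at 0.864%. Among Fox genes the mean was 7.53% and the median 1.67%, from Foxa1, which opens chromatin in the endoderm, at 0.626% to Foxs1 at 54.4%. Tbx genes had the highest mean, 17.7%, with a median of 6.71% and a range from Tbx2 (1.18%) to Tbx10 (79.0%).

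**Figure D1:**
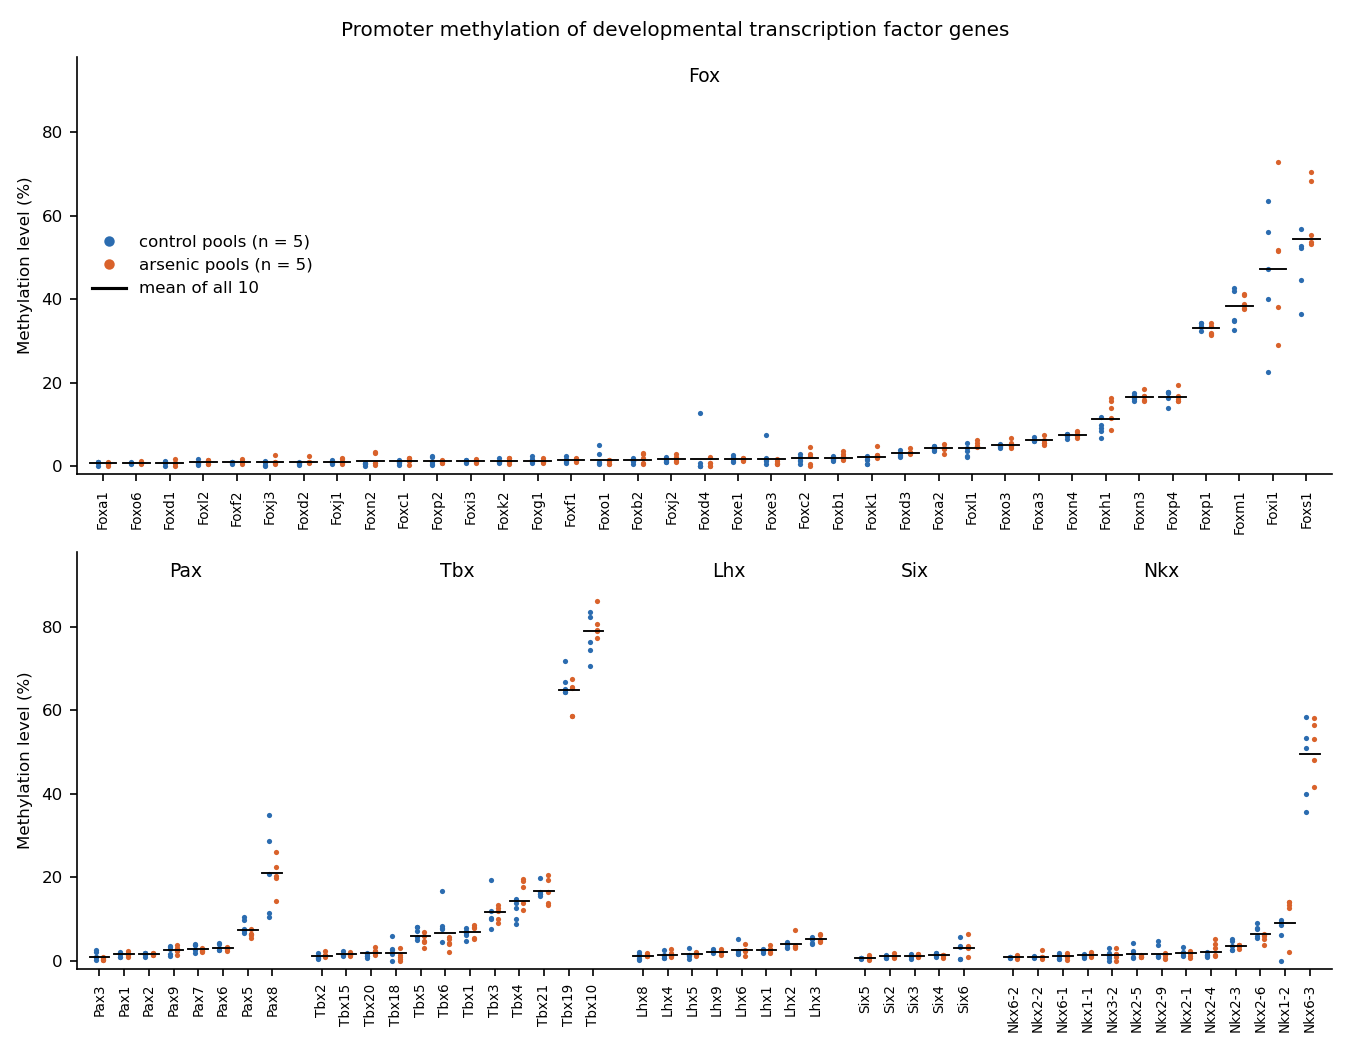
Methylation level in percent (y axis) of 83 members with measured CpGs, grouped by family and ordered by level, with 5 control pools, 5 arsenic pools and a bar at the mean of all 10. Most means lie under 5%, and Tbx10, Tbx19 and Foxs1 are above 50%.

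The 10 highest members were Tbx10, Tbx19, Foxs1, Nkx6-3, Foxi1, Foxm1, Foxp1, Pax8, Tbx21 and Foxp4. Tbx10 rested on 4 CpGs and Nkx6-3 on 5, while Tbx19, the corticotroph factor of the pituitary, had 18 CpGs at 64.8%. All 18 lay near inner Tbx19 starts outside the smaller GENCODE basic set, 10 at 61.8% and 8 at 68.5%. The first Tbx19 start had no measured CpGs, so its level is unknown. Levels were lower where CpGs were denser. The observed over expected CpG ratio of the genome sequence in the window had a median of 0.742 in the 45 members under 2% and 0.240 in the 3 members over 50%. Across genes, Spearman's rho between this ratio and the level was -0.606 in the 85 members and -0.522 in 13871 genes with at least 3 CpGs; genes are not independent replicates, and the measured CpGs are themselves chosen by CCGG sites. Foxi1 (0.254), Tbx19 (0.240) and Tbx10 (0.152) were among the members poorest in CpGs.

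In a list of genes with a known role in the gonad or germ line, 11 of the 15 measured members reported here lay under 5%. This is near the share over all members, 60 of 85 (70.6%), so low levels were not particular to the list. Foxo3, Tbx4, Pax8 and Foxs1 lay above 5%, and Foxo3 had 0.861% at its first start and 87.5% at its inner start. Foxo1, a marker of spermatogonial stem cells, stood at 1.51%. Foxc1, needed for germ cell migration, stood at 1.11%, Foxj1 of motile cilia at 1.07%, and Foxj2 and Foxj3, which act in spermatogenesis, at 1.57% and 0.925%. Lhx1, which supports self-renewal of spermatogonial stem cells, had 2.52% over 121 CpGs. Lhx2 and Lhx9, which act in the growing gonad, had 3.94% and 2.20%. Six4, which acts on the gonad precursor and on Sry, had 1.32%, and Foxl2 had 0.845% over 79 CpGs.

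Averaged over members, methylation was low along the whole window. Within 200 b of the nearest start, member CpGs had a mean of 4.57%, with single pools between 4.31% and 4.85%. From 800 to 1000 b away it was 6.09%, between 5.54% and 6.55%. The families did not share this profile: Fox CpGs went from 9.19% near the start to 5.84% at the edge, Nkx CpGs from 1.07% to 5.45%, and Tbx CpGs from 4.21% to 11.8%. In genes outside these and 7 other developmental families the mean rose from 6.91% to 26.0% over the same distance. Counted within a gene, among 38 members with at least 3 CpGs in both zones the level rose by a median of 0.485 points, and 4 (10.5%) rose by over 10 points. In 2179 remaining genes the median rise was 5.93 points, and 45.8% rose by over 10 points. The 4 members were Foxk1, Foxo3, Lhx3 and Tbx3, while the edge was lower by 62.8 points in Foxm1 and 15.2 points in Foxn3. Distance was taken to the nearest start, so zones of a gene with several starts can hold CpGs of different starts. In Foxo3, Tbx3, Foxm1 and Foxn3, whose starts differ in level, these values need not be changes along 1 promoter. This also bears on the Fox mean near the start, where Foxm1, Foxn3 and Foxp1 had 72.4%, 31.9% and 29.3%. Sox, Gata, Dlx, Irx, Zic, Hox and Pou genes resembled the members: 4.32% near the start and 5.10% at the edge. The difference of the pooled profile from the remaining genes was not tested.

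**Figure D2:**
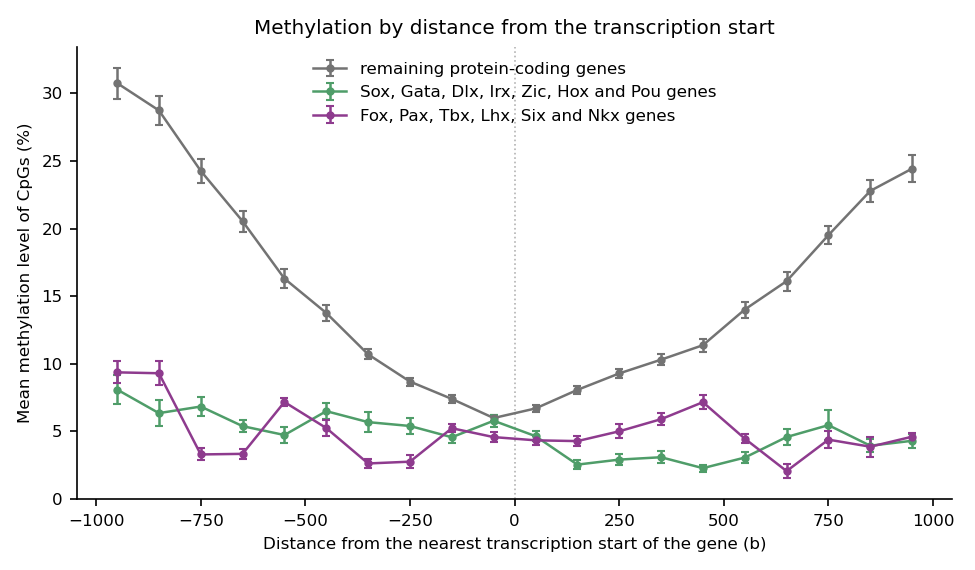
Mean methylation level of CpGs in percent (y axis) by distance from the nearest transcription start of the gene in 100 b bins (x axis; upstream is negative), with the SD over the 10 pools. Members stay under 10% in every bin, while protein-coding genes outside these and the 7 other developmental families climb to 30.8% at the upstream end and 24.4% at the downstream end.

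High levels in several Fox genes belonged to inner starts. Starts less than 2000 b apart were put into 1 group, which gave 93 groups with CpGs that hold a transcript of the GENCODE basic set and 32 that hold none. The first kind had a median of 1.69% and 73 of 93 lay under 5%. The second had a median of 30.1%, and a lower CpG ratio (0.383 against 0.654). Foxn3, a checkpoint factor, ranged from 1.00% at group 4 to 93.1% at group 5 in 5′ to 3′ order. Foxp1, of lymphocytes, lung and heart, ranged from 1.09% at group 1 to 91.0% at group 10. Foxo3 had 0.861% over 99 cytosines at the first group and 87.5% over 5 at the inner one. Foxn4, of the retina, had 1.57% and 81.8%. Foxm1, a driver of mitosis, had 4.19% at its first group, whose window it shares with Rhno1, and 72.5% at its second. Gene means of these genes are therefore averages of unmethylated and methylated starts.

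**Figure D3:**
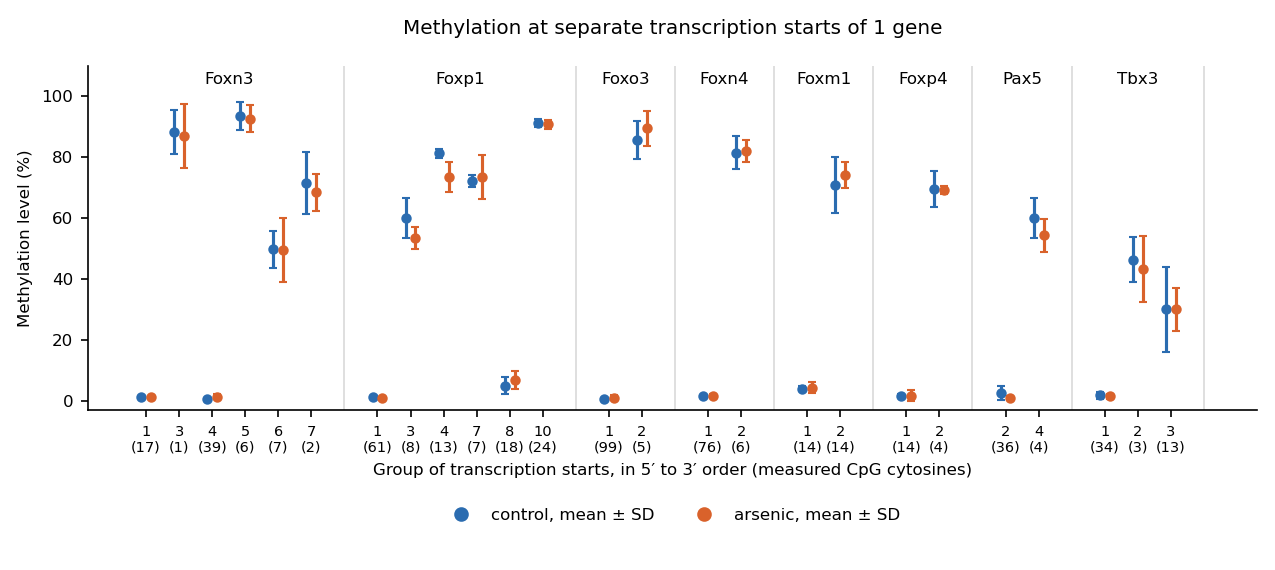
Mean methylation level ± SD over the 5 pools of each group (y axis, percent) at groups of transcription starts in 5′ to 3′ order with their measured CpG cytosines (x axis), for the 5 genes with the widest range and for Foxp4, Pax5 and Tbx3. Each gene has a group of starts under 5% and at least 1 other group over 30%.

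Between control and arsenic pools the members differed little. The mean over the 85 genes was 7.79%, 7.20%, 7.23%, 7.97% and 7.17% in control pools 1 to 5 and 7.15%, 7.51%, 7.90%, 8.13% and 8.27% in arsenic pools 1 to 5. The groups overlapped: 7.47% ± 0.379 (SD, n = 5) in controls and 7.79% ± 0.459 (SD, n = 5) with arsenic. The median gene differed by 0.129 points, beside 0.0308 points over all genes. Of the 85 members, 54 were higher and 31 lower in arsenic, 63 differed by less than 1 point, and 1 by more than 5 points. Under 2%, 30 of 45 members and 3214 of 5878 of all genes were higher in arsenic. From 2% to 5% the counts were 10 of 15 and 986 of 1831. From 5% to 10% they were 6 of 11 and 690 of 1291, and from 10% to 20% 3 of 6 and 752 of 1527. From 20% to 50% they were 3 of 5 and 889 of 1907, and above that 2 of 3 and 847 of 2001. The directions were not tested. The 60 members under 5% had 1.65% ± 0.136 in control and 1.73% ± 0.0642 in arsenic pools. The 8 members at 20% and over had 47.3% ± 3.02 and 49.5% ± 4.10, and the highest pool was arsenic 5 with 55.1%. Arsenic pool 5 also had the highest germline and imprinted promoters, and their part in the values of the high members was not tested. Without arsenic pools 1 and 5 the mean over all members differed by 0.376 points.

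Control and arsenic pools overlapped in each family. Fox genes averaged 7.21% ± 0.490 in controls and 7.85% ± 0.825 with arsenic, with 4 of 5 arsenic pools above the control mean. The Fox arsenic mean lay above the highest control pool (7.64%), and 1 of the 37 Fox genes, Foxs1, differed by 11.5 points. Nkx genes averaged 6.04% ± 1.02 and 6.55% ± 0.631, Lhx genes 2.45% ± 0.230 and 2.66% ± 0.338, and sine oculis genes 1.38% ± 0.465 and 1.56% ± 0.336. Pax genes averaged 5.35% ± 1.26 in control and 4.81% ± 0.579 in arsenic pools. Tbx genes had 17.8% ± 0.800 and 17.6% ± 0.962. In all 6 families the lowest pool of the higher group lay below the highest pool of the other.

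No member passed the test across genes. limma was fitted over 13871 genes to log2 of methylated over unmethylated reads, summed over each gene, and called an adjusted p under 0.05. It called 0 of 85 members, and 0% of all genes. The smallest adjusted p was 0.843 in members and 0.514 in all genes. At an unadjusted p under 0.05 it placed 1 member lower and 5 higher in arsenic, where 2.5% and 2.39% of all genes were lower and higher. No member had groups that did not overlap; over all genes 0.526% lay wholly lower and 0.512% wholly higher in arsenic. The median log2 ratio of arsenic over control was 0.08 over members and -0.04 over all genes.

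Foxs1 had the largest difference among members and the smallest p by limma, though not by permutation. Its level was 52.8%, 52.3%, 36.4%, 44.7% and 56.9% in control pools 1 to 5 and 53.1%, 55.3%, 53.6%, 68.2% and 70.5% in arsenic pools 1 to 5. Control pools 3 and 4 were low and arsenic pools 4 and 5 high, and the remaining 6 pools lay within 5 points of each other. The means were 48.6% ± 8.13 and 60.1% ± 8.49 (SD, n = 5 each), a log2 ratio of 0.93 (SE 0.28), with limma's adjusted p of 0.843 and a two-sided exact permutation p of 0.0794. The difference of 11.5 points lay between 8.48 and 13.6 points when single pools were left out. Its 23 cytosines ran from 276 to 930 b downstream of the start, and 20 of them were higher with arsenic.

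The stretch around the 6 capitalised Foxs1 CpGs was chosen because those CpGs had passed the test of single CpGs given further on, so its difference is a description. Over the 16 cytosines from 363 to 436 b downstream, the control pools had 53.9%, 50.6%, 42.1%, 52.4% and 64.1%, and the arsenic pools 57.5%, 68.0%, 69.1%, 71.6% and 73.3%. Control pool 5 was above arsenic pool 1, and otherwise the groups were apart. The means were 52.6% ± 7.86 and 67.9% ± 6.19, on 12 to 100 reads per cytosine and pool. The other 7 cytosines had 39.4% ± 14.3 and 42.4% ± 20.3. Neighbouring CpGs of this stretch are read by the same fragments and are not independent.

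**Figure D4:**
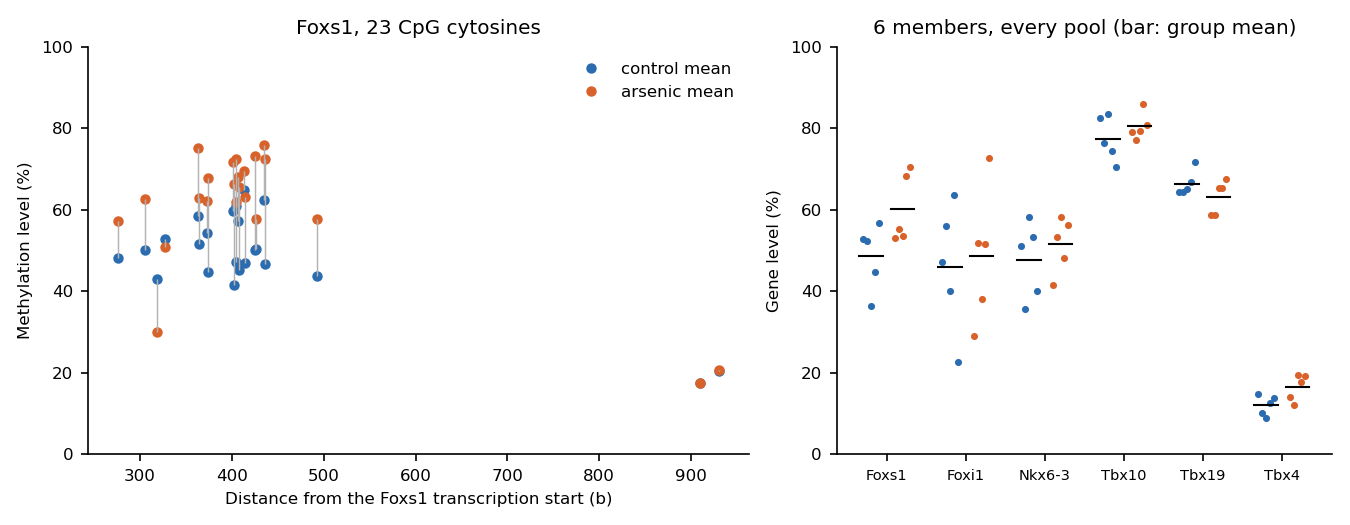
Left, mean methylation level (percent) of the 23 measured Foxs1 cytosines in control and arsenic pools by distance from the start in b; right, gene level (percent) of 6 members in every pool, with a bar at each group mean. The 16 Foxs1 cytosines around 400 b have a mean of 52.6% in control and 67.9% in arsenic pools, and the Foxi1 pools of the groups cover much of the same range.

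The other members with an unadjusted limma p under 0.05 were Foxk1, Foxj3, Pax5, Tbx4 and Foxd2. Foxk1, of muscle progenitors, had 1.27% ± 0.842 in control and 2.87% ± 1.08 in arsenic pools (limma adjusted p = 0.950, exact permutation p = 0.0159, n = 5 each), and its arsenic pool 4 was highest at 4.74%. Foxj3 had 0.673% ± 0.467 and 1.18% ± 0.813 (limma adjusted p = 0.950, exact permutation p = 0.278). Pax5, the B cell factor, had 7.56%, 7.19%, 10.4%, 9.82% and 6.66% in control and 6.34%, 6.35%, 7.50%, 6.23% and 5.33% in arsenic pools. Its arsenic pool 3 lay inside the control range, and the others below it (adjusted p = 0.950, exact permutation p = 0.0238). The first Pax5 group of starts had no measured CpGs, and later groups had 36 cytosines at 1.81% and 4 at 57.1%. Tbx4, of the hindlimb and lung, had 12.0% ± 2.52 and 16.5% ± 3.31 (adjusted p = 0.950, exact permutation p = 0.0635), with arsenic pools 3, 4 and 5 above every control pool. Foxd2, of the kidney and face, had 0.647% ± 0.228 and 1.23% ± 0.608 (limma adjusted p = 0.950, exact permutation p = 0.0159). By permutation alone, Tbx6, of the somites, was lower with arsenic (9.02% ± 4.57 and 4.24% ± 1.39, exact permutation p = 0.0238) and Tbx20, of the heart, higher (1.27% ± 0.454 and 2.23% ± 0.676, exact permutation p = 0.0317). Both, like Foxd2, were named after their values were seen. Tbx6 rested on 8 CpGs, with control pool 1 at 16.8% and the other control pools between 4.60% and 8.31%. A permutation p under 0.05 was found for 5 of 85 members, where chance gives about 1 in 20. Its share over all genes was not computed. These permutation p-values are two-sided and unadjusted over 85 genes, and 5 pools against 5 cannot give less than 0.00794. The means of Foxj3 and Foxd2 in both groups, and of Foxk1 and Tbx20 in controls, did not exceed the 1.39% read at mitochondrial CpGs. The bisulfite conversion rate that the paper reports allows a larger unconverted share than this. The arsenic means of Foxk1 and Tbx20 may therefore not clear the background either.

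The members that varied most among control pools were Foxi1, Pax8, Nkx6-3 and Foxs1. Foxi1 had 47.3%, 56.0%, 40.1%, 63.5% and 22.6% in control and 29.0%, 51.8%, 38.0%, 51.6% and 72.7% in arsenic pools. Both groups covered nearly the whole range, 45.9% ± 15.7 and 48.6% ± 16.6, on 11 cytosines. Pax8 had 21.2% ± 10.6 in control and 20.6% ± 4.25 in arsenic pools, on 7 cytosines. Nkx6-3 had 47.6% ± 9.53 and 51.5% ± 6.71. In the 60 members under 5% the median control SD was 0.569 points.

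**Figure D5:**
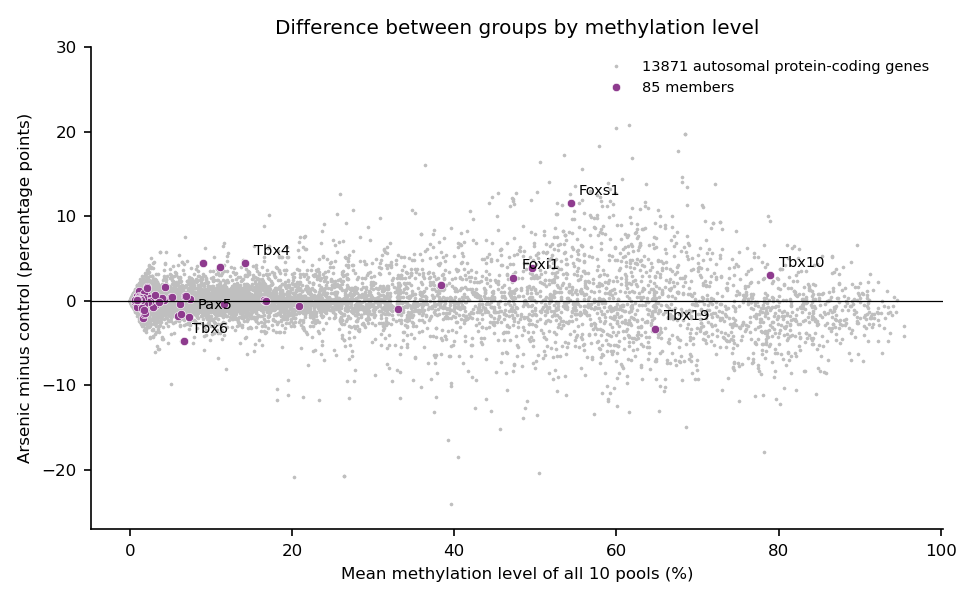
Difference between the group means in percentage points (y axis) against the mean level of all 10 pools in percent (x axis), for 13871 autosomal protein-coding genes (grey) and the 85 members (purple). Members lie mostly near the origin, and Foxs1, 11.5 points higher in arsenic, stands farthest from 0 among them.

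Single CpGs were tested by logistic regression on pooled reads with the limits of the study, q = 0.01 or less and 10 points or more between groups; CpGs that passed are called hypoDMCs (lower in arsenic) and hyperDMCs (higher). Member windows held 10 hypoDMCs (0.232% of 4313) and 12 hyperDMCs (0.278%), where 1.48% and 0.784% of all 1348062 CpGs were called. In the windows of all autosomal protein-coding genes the shares were 0.415% and 0.314%. Among the 307 member CpGs with a level between 10% and 90%, 2.61% were hypoDMCs and 2.93% hyperDMCs, and among all CpGs of such levels 2.44% and 1.30%. The member shares rest on 8 hypoDMCs and 9 hyperDMCs. Of these 9, 6 lie in the Foxs1 stretch, where neighbouring CpGs are not independent, so the hyperDMC share is no sign of a gain across members. This test takes reads as independent and leaves the spread between pools out. limma per CpG, which includes it, called 0 member CpGs, with a smallest adjusted p of 0.830 and 178 (4.13%) at an unadjusted p under 0.05, against 6.002% of all CpGs. The 22 called CpGs lay in 13 genes: 7 genes had hypoDMCs, 6 had hyperDMCs and none had both.

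The hypoDMCs with the largest differences were in Pax6, Foxp1 and Lhx6. In the eye gene Pax6, a cytosine in an untranslated exon, 178 b downstream of a start (chr2:105674141, plus strand), differed by -25.9 points in pooled reads. Its pools had 31.6%, 0%, 0%, 15.4% and 54.5% in control and 0%, 0%, 0%, 0% and 3.70% in arsenic, so 2 control pools were as low as the arsenic pools. The Foxp1 cytosine, 517 b upstream of its start group 4 in an intron (chr6:99248853, minus strand), differed by -22.1 points and had 88.9% ± 12.7 and 68.4% ± 12.3. Over that whole group of starts, 13 cytosines, Foxp1 had 79.8% to 83.7% in control and 68.7% to 80.8% in arsenic pools, with 4 arsenic pools below every control pool. This group of starts was picked for its called cytosine, which is among the 13, so its difference is a description and was not tested. Of the other measured Foxp1 groups, 1, 3 and 10 were lower and 7 and 8 higher in arsenic. The Lhx6 cytosine, in a coding exon 115 b downstream (chr2:36103945, minus strand), differed by -15.1 points, with 18.0% ± 19.1 and 1.11% ± 2.48. Lhx6 acts in cortical interneurons.

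The hyperDMCs were led by Foxs1, which held 6 of the 12. At the strongest of them, 436 b downstream in the coding exon (chr2:152932772, plus strand), the difference was 24.3 points (q = 1.37e-05), with 46.7% ± 11.3 in control and 72.4% ± 8.43 in arsenic pools and limma's adjusted p = 0.830. In Tbx4 a cytosine 441 b upstream (chr11:85885981, plus strand) had 13.6%, 8.33%, 18.5%, 20.7% and 21.3% in control and 23.7%, 25.9%, 40.0%, 34.4% and 42.9% in arsenic pools. These groups did not overlap. Foxa3, a liver factor, had an intronic cytosine 199 b downstream (chr7:19023339, minus strand) at 3.60% ± 3.46 and 14.7% ± 9.44. The 30 b around the Tbx4 cytosine (chr11:85885967-85885996, plus strand) and around a Pax6 hypoDMC in an intron 262 b upstream (chr2:105678114-105678143, plus strand) show the 2 called CpGs whose groups were apart, in capitals.
Tbx4: ccactgcgtgcaggCGgggctgtgggagag
Pax6: gtattacggaggtcCGagccggcttggaga

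At the Pax6 cytosine (chr2:105678129, minus strand) the control pools had 29.7%, 17.6%, 14.04%, 33.3% and 15.8%, and the arsenic pools 11.7%, 4.44%, 4.76%, 11.8% and 0%. The cytosine opposite on the plus strand, chosen here after its values were seen, was apart too, with means of 8.13% and 2.21%. Over all member CpGs, 2 lay wholly lower and 7 wholly higher in arsenic, 0.0464% and 0.162%, where 0.474% and 0.219% of all CpGs did. Of the member CpGs, 2095 (48.6%) differed by less than 1 point between the group means.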

How the data were processed

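RRBS data of 5 control and 5 arsenic pools were analysed from 1 table of all samples. According to the submitters' processing notes and the study's methods, the authors trimmed reads with Trim Galore 0.6.5, aligned them to mm10 with Bismark 0.22.3 and tabulated CpGs with methylKit 1.22.0. The deposited values are counts of methylated and unmethylated reads and the coverage per CpG cytosine and pool, strands kept apart, for CpGs with at least 10 reads in every pool. Transcription starts came from GENCODE M21, comprehensive set.

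Members and lists were chosen with earlier results of these data known. Gene levels were unweighted means over CpGs. limma 3.58.1 (R 4.3.3) was fitted to log2((methylated + 1)/(unmethylated + 1)) of summed reads for genes with at least 3 CpGs, with Benjamini-Hochberg adjustment over 13871 genes; single CpGs were tested by logistic regression on pooled reads (q at most 0.01 over all CpGs, 10 points) and by limma. Exact permutation tests over pools were two-sided. The limma fit of genes and the logistic regression were run on simulated data. The data simulated for the logistic regression had no spread between pools, so they cannot show how it behaves where pools differ. Named genes were the 10 highest members, the 4 with the smallest limma p, the 4 with the largest control SD, a list with roles in gonad or germ line, the lowest and highest of each family, the 3 leading hypoDMC and 3 leading hyperDMC genes, and the 5 with the widest range between starts; X-linked members of the list were outside the rule, and 2 genes are not reported here by name. Windows, coverage, left-out pools, filters, prior count and test were varied. Pools are the replicates, and the depth gives each CpG 10 reads or more, so a single read moves a CpG by up to 10 points.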

Additional observations from a re-analysis of the deposited data

Results flagged for a closer look

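Of 88 groups of 5 pools examined (44 values: the means over members and families and the 37 named genes), 7 held a pool whose gap to its nearest neighbour exceeded the share of the group's range at Dixon's 95% critical value; chance gives about 1 in 20. In arsenic pool 4, Foxj3 (2.60%), Foxk1 (4.74%) and Lhx2 (7.29%) stood above the other arsenic pools. In control pool 5, Foxa1 was lowest at 0.0796% and Lhx6 highest at 5.13%. Foxl2 was highest in control pool 2 (1.74%) and Tbx21, the T helper cell factor, in control pool 1 (19.9%). The means over all members and over each family held no such pool.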

How the results depend on the processing

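limma called no member gene under any of 22 alternatives, and between 1 and 8 members had an unadjusted p under 0.05, against 6 in the reported fit; without arsenic pool 4, control pool 2 or control pool 4 the number was 1, 2 and 3. The smallest adjusted p of a member ranged from 0.643 to 0.983. The replicate block called 0 as well, and with limma per CpG it called 0 hypoDMCs and 0 hyperDMCs; the numbers do not pair the pools, whose deviations correlated between -0.0329 and 0.0342 for the same number. Counts of DMCs were less stable. The 10 hypoDMCs became 3 with starts of the basic set only (added after seeing the data), 4 at a coverage of at least 20, 2 at 20 points, and 0 with an overdispersion factor or limma per CpG. The 12 hyperDMCs became 25 within 2000 b, 4 from 1000 b upstream to 100 b downstream, 4 at 20 points, and 0 with an overdispersion factor or limma per CpG. Leaving out single pools gave 7 to 15 hypoDMCs and 8 to 15 hyperDMCs. In these alternatives the cause of the change was not tested, apart from the wider or narrower window and the larger difference, which change the CpGs that can count.

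The difference over all members, 0.321 points, lay between 0.141 and 0.481 points over 20 alternatives, lowest among single pools without arsenic pool 5 (0.202). The differences of the Fox, Pax and Lhx genes kept their sign but not their size: Fox genes went from 0.646 to 0.347 points without arsenic pool 5, Pax genes from -0.541 to -0.0820 without control pool 4 and -0.903 without control pool 2, and Lhx genes from 0.218 to 0.108 without arsenic pool 4 and 0.128 without control pool 1. The sign changed in 7 of 20 alternatives for Tbx genes, 2 for sine oculis genes and 2 for Nkx genes, always by less than the SD between pools. Of the 37 named genes, 27 kept their direction without any single pool and 10 did not, among them Foxi1, Pax8 and Foxn3. Single CpGs rest on as few as 10 reads in a pool.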
